A study of Mus musculus with 17 samples.

Results

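The CXC chemokines Cxcl1, Cxcl2, Cxcl10, Cxcl12, Cxcl13 and Cxcl16 were followed in macrophages sorted from the knee synovium, the membrane that lines the joint. The members were the 6 rows of the count table with these symbols, out of 22859 genes, and all 6 passed the filter on low counts and were tested. The data were bulk RNA-seq of 17 libraries in 6 groups, made from the LYVE1+CX3CR1+, MHCII+CD11c- and MHCII+CD11c+ macrophage subsets (Lyve1, IAIE and CD11c in the sample labels). Each subset came from control mice (called Healthy in the titles) and from mice collected 8 h after immune complexes (IC), ovalbumin bound by anti-ovalbumin antibody, were injected into a vein. There were 3 libraries per group, except 2 for MHCII+CD11c+ macrophages after IC. All mice, controls included, were adult mice labelled Fcgr2b-KO (Fcgr2b encodes the inhibitory Fc receptor FcγRIIb), so the values hold for this genotype only. What the control mice received, and whether the numbered replicates came from separate or pooled animals, was not stated in the labels, so p-values measure the spread between these samples, which may in part be technical.

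CXC chemokines are small secreted proteins that draw leukocytes along a gradient by binding G protein-coupled CXCR receptors. Cxcl1 and Cxcl2 act on CXCR2 and recruit neutrophils, Cxcl10 acts on CXCR3 of activated T cells and is classically induced by interferons, and Cxcl12 acts on CXCR4 and retains leukocytes in tissues. Cxcl13 acts on CXCR5 and positions B cells, and Cxcl16 is made as a membrane-anchored ligand of CXCR6 that proteases can release. Transcription of Cxcl1, Cxcl2 and Cxcl10 in macrophages is known to respond to NF-κB.

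In GRCm38 (GENCODE M21) Cxcl1 lay at chr5:90891241-90893115 and Cxcl2 at chr5:90903871-90905938, next to each other on the plus strand. Cxcl13 lay at chr5:95956951-95961068 on the plus strand, Cxcl12 at chr6:117168535-117181367 on the plus strand and Cxcl16 at chr11:70453983-70459984 on the minus strand. Cxcl10 lay on the minus strand at chr5:92346638-92348889, within the plus-strand gene Art3, and Cxcl16 overlapped the plus-strand gene Zmynd15. Art3 had 374 counts and Zmynd15 1065 counts over all libraries, and since the strand setting of the counting was not stated, reads in these overlaps cannot be assigned with certainty.

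The promoters of 4 members are shown because Cxcl1, Cxcl2 and Cxcl10 hold motifs of factors named above and Cxcl13 holds none of them. Each line is the 250 bases before the RefSeq transcription start (GRCm38.p6), 5′ to 3′ on the strand of the gene, with capitals for matches to an NF-κB type motif (GGGNNNTTCC) or an interferon response type motif (GAAANNGAAA) on either strand. The windows are chr5:90890995-90891244 for Cxcl1, chr5:90903649-90903898 for Cxcl2, chr5:92348890-92349139 (minus strand) for Cxcl10 and chr5:95956689-95956938 for Cxcl13.
Cxcl1: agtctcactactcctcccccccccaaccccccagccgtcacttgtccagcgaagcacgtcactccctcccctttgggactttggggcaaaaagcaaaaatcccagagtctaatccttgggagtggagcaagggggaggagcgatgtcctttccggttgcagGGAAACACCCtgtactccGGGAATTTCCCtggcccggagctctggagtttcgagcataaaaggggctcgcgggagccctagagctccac
Cxcl2: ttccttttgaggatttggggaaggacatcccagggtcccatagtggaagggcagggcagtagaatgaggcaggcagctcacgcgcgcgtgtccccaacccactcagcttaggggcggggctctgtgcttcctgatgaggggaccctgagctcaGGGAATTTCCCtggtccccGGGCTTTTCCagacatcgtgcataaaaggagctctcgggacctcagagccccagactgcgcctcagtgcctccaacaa
Cxcl10: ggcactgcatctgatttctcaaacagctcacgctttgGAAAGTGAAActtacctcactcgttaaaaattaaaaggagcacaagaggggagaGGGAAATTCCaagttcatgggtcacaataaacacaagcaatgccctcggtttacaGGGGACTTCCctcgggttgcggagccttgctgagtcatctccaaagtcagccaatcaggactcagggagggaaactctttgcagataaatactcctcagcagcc
Cxcl13: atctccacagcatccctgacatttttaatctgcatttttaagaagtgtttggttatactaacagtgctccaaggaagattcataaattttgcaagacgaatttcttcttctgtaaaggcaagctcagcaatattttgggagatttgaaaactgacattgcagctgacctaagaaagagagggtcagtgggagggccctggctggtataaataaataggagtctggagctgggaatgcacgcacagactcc

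Cxcl1 and Cxcl2 shared the match GGGAATTTCC, at 71 to 62 bases before the start in Cxcl1 and 97 to 88 in Cxcl2; on the other strand a second match overlapped it, shifted by 1 base. A further match stood at 89 to 80 bases in Cxcl1 (GGAAACACCC, minus strand) and at 78 to 69 bases in Cxcl2 (GGGCTTTTCC). Cxcl10 held GGGAAATTCC at 159 to 150 bases, GGGGACTTCC at 104 to 95 bases and, alone among the 5 members with a RefSeq promoter, the interferon response type match GAAAGTGAAA at 213 to 204 bases. Cxcl13 held neither motif in this window but had TATAA at 46 to 42 bases. The Cxcl12 window (chr6:117168285-117168534) also held neither motif and had 5 matches to GGGCGG. Of 32851 mouse promoters of the same length, 4.65% held the NF-κB type motif, 2.98% the interferon response type motif, 22.8% TATAA and 32.7% GGGCGG. These are matches of letters, chosen after the promoters were seen, and not measured binding sites. Cxcl16 had no entry.

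Levels are given in CPM, counts relative to the library total, scaled between libraries by the trimmed mean of M-values (TMM). Library totals ran from 2301913 to 7248939 counts, so that 3 counts, the floor used for detection, correspond to 0.419 to 1.24 CPM, for counting error only. The 6 macrophage markers fixed for the check (Csf1r, Adgre1, Cd68, Mertk, C1qa, C1qb) were above 0 in every group and summed to 6248 to 9177 CPM in LYVE1+CX3CR1+ and MHCII+CD11c- libraries, but to 1628 to 2914 CPM in MHCII+CD11c+ control and 3099 to 4261 CPM in MHCII+CD11c+ IC libraries. Itgax, which encodes CD11c, was at 275 to 443 CPM in MHCII+CD11c+ libraries and at most 16.05 CPM elsewhere. The 5 dendritic cell markers (Flt3, Zbtb46, Xcr1, Clec9a, Ccr7) summed to 83.0 to 201 CPM in MHCII+CD11c+ libraries, against 6.61 to 14.9 CPM in LYVE1+CX3CR1+ libraries. Fcgr2b itself had 167 to 1168 counts per library. No wild-type library was analysed here and the labels do not say which part of the gene was altered, so these counts check nothing. In bulk samples, fewer cells of a type and less RNA per cell cannot be told apart.

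Cxcl2 was the most abundant member in every group. It made up 69.1% to 77.9% of the summed CPM of the 6 members as a group mean, and it also led per length of exon, with group means of 265 to 755 CPM per kb. Cxcl1 ranked next per length in all 6 groups, with 38.0 to 158 CPM per kb. Cxcl16 had 27.9 to 58.7 CPM per kb. The other members varied by subset: Cxcl10 ran from 0.954 to 27.8 CPM per kb, Cxcl12 from 0.312 to 5.53 CPM per kb and Cxcl13 from 0 to 99.3 CPM per kb.

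**Figure D1:**
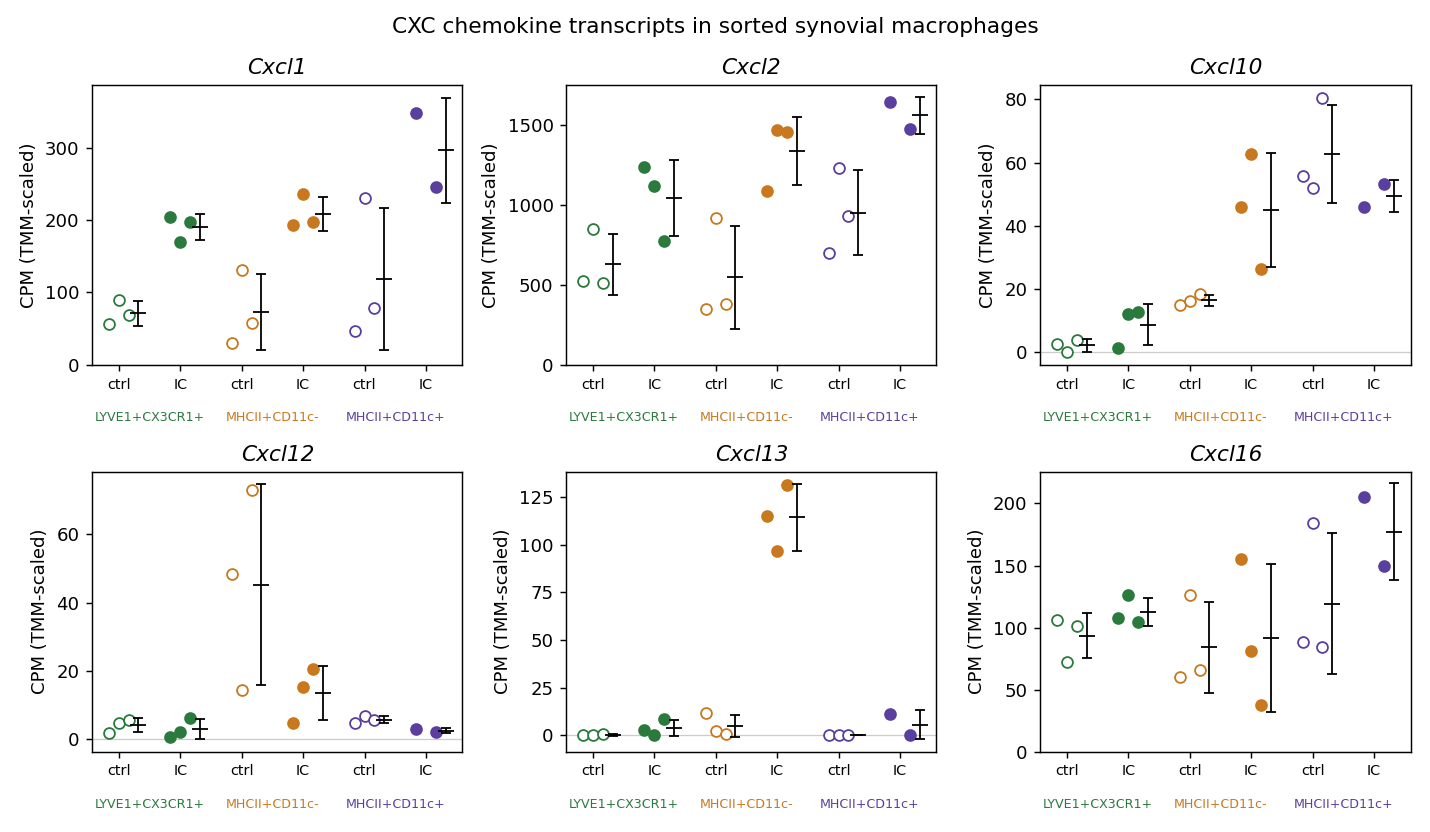
Level of each chemokine transcript in each library (TMM-scaled CPM, linear axes that differ between panels), with open points for control and filled points for IC libraries of the 3 subsets, and black bars for the mean ± SD of each group. Cxcl1 was higher in every IC library than in the control libraries of the same subset, and Cxcl10 was lowest in LYVE1+CX3CR1+ libraries. Cxcl12 had its highest group mean in MHCII+CD11c- controls, which overlapped with MHCII+CD11c- IC libraries, and Cxcl13 was highest in MHCII+CD11c- IC libraries.

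The first comparison asked how the chemokines differed 8 h after IC within each subset. The neutrophil attractants Cxcl1 and Cxcl2 were higher after IC, by 1.41 ± 0.33 and 0.91 ± 0.21 (log2, SE) as the mean of the 3 subsets, and both passed the test on that mean. Cxcl13 passed it too, but not without 1 MHCII+CD11c+ IC library that held nearly all of its reads in that subset. Each call on the mean depended on single libraries. Leaving out any 1 of 12 libraries ended it for Cxcl1, any 1 of 4 for Cxcl2 and any 1 of 12 for Cxcl13. Within single subsets no member passed the test, and Cxcl10, Cxcl12 and Cxcl16 did not pass it as a mean.

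The level of Cxcl1 in LYVE1+CX3CR1+ macrophages was 55.9, 89.7 and 68.2 CPM in the control libraries and 205, 170.3 and 197 CPM in the IC libraries. In MHCII+CD11c- macrophages it was 30.7, 131 and 57.5 CPM in controls and 193, 235 and 197 CPM after IC. In MHCII+CD11c+ macrophages it was 46.8, 231 and 79.0 CPM in controls and 348 and 245 CPM after IC. In all 3 subsets every IC library lay above every control library, which held for 0.727% of the tested genes, and the control libraries were the more spread in both MHCII+ subsets. The log2 fold change was 1.42 ± 0.56 for LYVE1+CX3CR1+, 1.51 ± 0.56 for MHCII+CD11c- and 1.31 ± 0.61 for MHCII+CD11c+ macrophages. With edgeR's quasi-likelihood test and Benjamini-Hochberg (BH) adjustment over 15272 genes, the adjusted p was 0.273, 0.360 and 0.965 in these subsets and 0.0400 for the mean of the 3 responses. Over 25 alternatives the adjusted p of the mean Cxcl1 response in edgeR or the other tools ran from 0.000905 to 0.149, and 12 of them passed. Leaving out any 1 of 12 libraries ended that call, with an adjusted p (edgeR) of 0.0522 to 0.149: all LYVE1+CX3CR1+ controls, replicate 3 of each MHCII+ control group, all MHCII+CD11c- and MHCII+CD11c+ IC libraries, and LYVE1+CX3CR1+ IC replicates 1 and 3.

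Cxcl2 in LYVE1+CX3CR1+ macrophages was at 527, 851 and 514 CPM in controls and 1237, 1119 and 775 CPM after IC, so that the lowest IC library fell within the control range. In MHCII+CD11c- macrophages the level was 348, 919 and 378 CPM in controls and 1091, 1467 and 1459.6 CPM after IC. In MHCII+CD11c+ macrophages it was 697, 1230.3 and 930.0 CPM in controls and 1645 and 1478 CPM after IC. The groups did not overlap in either MHCII+ subset, a pattern shown by 8.72% of genes for the CD11c- and 14.1% for the CD11c+ subset. The log2 fold change was 0.73 ± 0.34, 1.29 ± 0.35 and 0.71 ± 0.38 in the same order of subsets, with adjusted p (edgeR, BH) of 0.361, 0.136 and 1. The mean response of Cxcl2 had an adjusted p (edgeR, BH) of 0.0267, with a range of 6.15e-05 to 0.114 over 25 alternatives, of which 20 passed. The call on the mean was lost without MHCII+CD11c+ IC replicate 1 (adjusted p = 0.114, edgeR) or 2 (0.0918), without MHCII+CD11c- IC replicate 3 (0.0547) and without LYVE1+CX3CR1+ control replicate 3 (0.0564). Within MHCII+CD11c- macrophages, leaving out control replicate 2 alone gave Cxcl2 an adjusted p (edgeR) of 0.00128, within a range of 0.00128 to 0.446 over 26 alternatives.

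Cxcl1 and Cxcl2 varied together between libraries. Pearson's r of their log2 CPM was 0.902 over 17 libraries, a description that includes the group differences and the library each pair shares. Control replicate 2 was the highest of the 3 controls for both genes in every subset. Cxcl2 was the gene most like Cxcl1 of all tested genes, followed by Acod1 (r = 0.877), which encodes the itaconate-producing enzyme of activated macrophages, and 1110004F10Rik (r = 0.834). The genes most like Cxcl2 were Clec4e (r = 0.932), which encodes the receptor Mincle, Mrpl52 (r = 0.925) and Cxcl1.

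**Figure D2:**
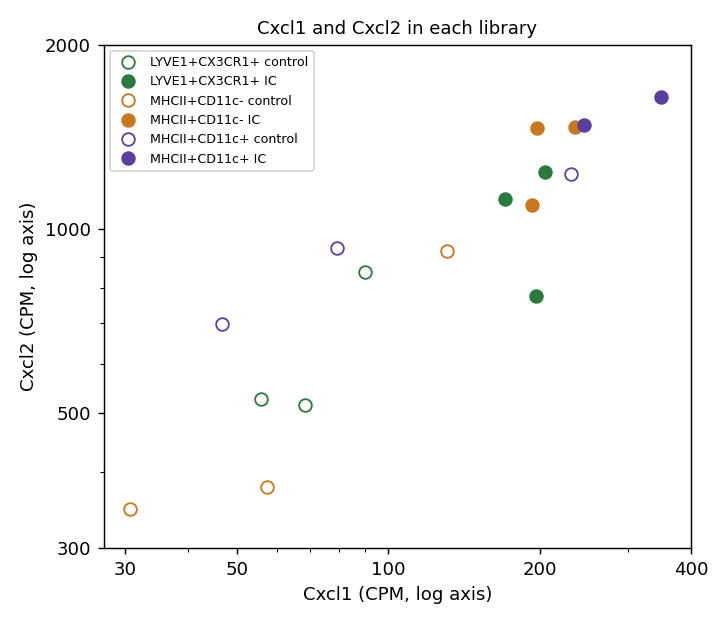
Cxcl1 against Cxcl2 level in each of the 17 libraries (CPM, log axes), with open points for control and filled points for IC libraries of the 3 subsets. The IC libraries lie at 170.3 to 348 CPM of Cxcl1, and the MHCII+CD11c+ control library at 231 CPM lies among them.

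The summed level of 8 neutrophil markers (S100a8, S100a9, Ly6g, Retnlg, Csf3r, Camp, Ngp, Mmp8) was not higher in the IC libraries. It was 30.8 to 40.5 CPM in LYVE1+CX3CR1+ controls and 12.6 to 32.8 CPM after IC, when 5 of the 8 markers, S100a8 and S100a9 among them, were at 0 in all 3 libraries. In MHCII+CD11c- macrophages it was 41.1 to 311 CPM in controls and 64.4 to 112 CPM after IC. In MHCII+CD11c+ macrophages it was 89.4 to 482 CPM in controls and 25.1 to 29.5 CPM after IC. Of the 8 markers, Csf3r alone had a higher mean after IC in MHCII+CD11c- macrophages, at 69.0 against 49.3 CPM in controls. The part of neutrophils in the Cxcl1 and Cxcl2 differences was not tested.

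Cxcl10 was higher after IC in MHCII+CD11c- macrophages without overlap, as were 8.72% of all genes. It was there at 45.9, 62.6 and 26.4 CPM, against 14.9, 16.1 and 18.4 CPM in controls. In LYVE1+CX3CR1+ macrophages it was at 2.68, 0 and 3.77 CPM in controls and 1.17, 11.96 and 12.9 CPM after IC, so that 1 IC library stayed within the control range. In MHCII+CD11c+ macrophages the level was 55.7, 51.8 and 80.6 CPM in controls and 46.0 and 53.1 CPM after IC, with overlap. The log2 fold changes were 1.45 ± 0.61, 1.85 ± 0.72 and -0.34 ± 0.66 in these subsets, with adjusted p (edgeR, BH) of 0.419, 0.240 and 1, and the mean of 0.99 ± 0.38 had an adjusted p of 0.177. In LYVE1+CX3CR1+ macrophages the Cxcl10 difference passed with DESeq2 (adjusted p = 0.0451) and without IC replicate 1 (adjusted p = 0.0498, edgeR), within a range of 0.0451 to 0.614 over 26 alternatives. Without that library the mean Cxcl10 response had an adjusted p (edgeR) of 0.0289, within a range of 0.0289 to 0.395.

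Cxcl13 was detected mainly in MHCII+CD11c- macrophages after IC. There it had 518, 469 and 477 counts in the IC libraries (115, 96.6 and 131 CPM) and 55, 14 and 3 counts in the controls (11.7, 2.47 and 1.003 CPM). The groups were far apart, with a ratio of mean CPM of 22.5, while the control libraries themselves spread by more than their mean. The log2 fold change was 4.45 ± 1.28, with an unadjusted p of 0.00623 and an adjusted p of 0.225 (edgeR, BH); over 26 alternatives the adjusted p of Cxcl13 ran from 0.00637 (limma voom) to 0.544. In LYVE1+CX3CR1+ macrophages Cxcl13 had 0, 0 and 6 counts in controls and 10, 0 and 21 counts after IC. In MHCII+CD11c+ macrophages it had no count in the 3 controls and 75 and 2 counts after IC, so that 1 IC library carried nearly all of its reads. With each control library set at the floor of 3 counts, the ratio of mean CPM there had a lower bound of 7.33 (IC mean 5.69 CPM). This bound rests on the IC library with 75 counts, since the other, with 2 counts, was itself below the floor. It therefore describes the ratio of means only, and a rise in both IC libraries is not shown. No fitted fold change is given for that subset or for the mean of the 3 subsets, which depends on it. The mean response of Cxcl13 had an adjusted p (edgeR, BH) of 0.0379, with a range of 0.00045 to 0.387 over 25 alternatives, of which 11 passed. It was 0.387 (edgeR) without MHCII+CD11c+ IC replicate 1, the library with 75 counts, and 0.0513 to 0.0857 without any 1 of 11 others: all LYVE1+CX3CR1+ controls, MHCII+CD11c- control replicates 2 and 3, MHCII+CD11c+ control replicate 1, all MHCII+CD11c- IC libraries, and LYVE1+CX3CR1+ IC replicates 1 and 3.

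The 4 B cell markers summed to 9.54 to 32.1 CPM in MHCII+CD11c- controls and 0.443 to 14.8 CPM in MHCII+CD11c- IC libraries, with overlap, and their part in the Cxcl13 difference was not tested. The genes most like Cxcl13 over the 17 libraries were Slc13a3 (r = 0.860), a dicarboxylate transporter, Fpr2 (r = 0.856), a formyl peptide receptor, and Irf7 (r = 0.854), an interferon regulatory factor. Irf7 was at 190.2 to 407 CPM in MHCII+CD11c- IC libraries and 59.4 to 137 CPM in their controls.

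Cxcl12 had a negative log2 fold change after IC in each subset, and the test passed in none. It was at 48.4, 14.3 and 72.9 CPM in MHCII+CD11c- controls and 4.88, 15.2 and 20.6 CPM after IC, with overlap. In MHCII+CD11c+ macrophages the level was 4.68, 6.69 and 5.67 CPM in controls and 3.09 and 2.02 CPM after IC, without overlap, which 9.02% of genes showed in this direction. In LYVE1+CX3CR1+ macrophages it was 1.73, 4.86 and 5.58 CPM in controls and 0.585, 2.20 and 6.22 CPM after IC. The log2 fold changes were -1.73 ± 0.65, -1.14 ± 0.79 and -0.49 ± 0.73, with adjusted p (edgeR, BH) of 0.308, 1 and 0.844. The mean was -1.12 ± 0.42 with an adjusted p of 0.152 (edgeR, BH), and Cxcl12 passed in 1 of 25 alternatives, with surrogate variables (0.0364 within a range of 0.0364 to 0.362).

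Cxcl16 had the narrowest range of group means as a ratio of the highest to the lowest, from 84.3 to 177 CPM. It was at 106, 72.4 and 102 CPM in LYVE1+CX3CR1+ controls and 108, 126 and 105 CPM after IC. In MHCII+CD11c- macrophages it was at 60.1, 127 and 66.2 CPM in controls and 156, 81.2 and 38.0 CPM after IC, and in MHCII+CD11c+ macrophages at 88.7, 185 and 84.3 CPM in controls and 205 and 149.5 CPM after IC. All groups overlapped within subsets. The log2 fold changes were 0.27 ± 0.44, 0.12 ± 0.44 and 0.57 ± 0.48, and the mean of 0.32 ± 0.26 had an adjusted p of 0.608 (edgeR, BH).

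**Figure D3:**
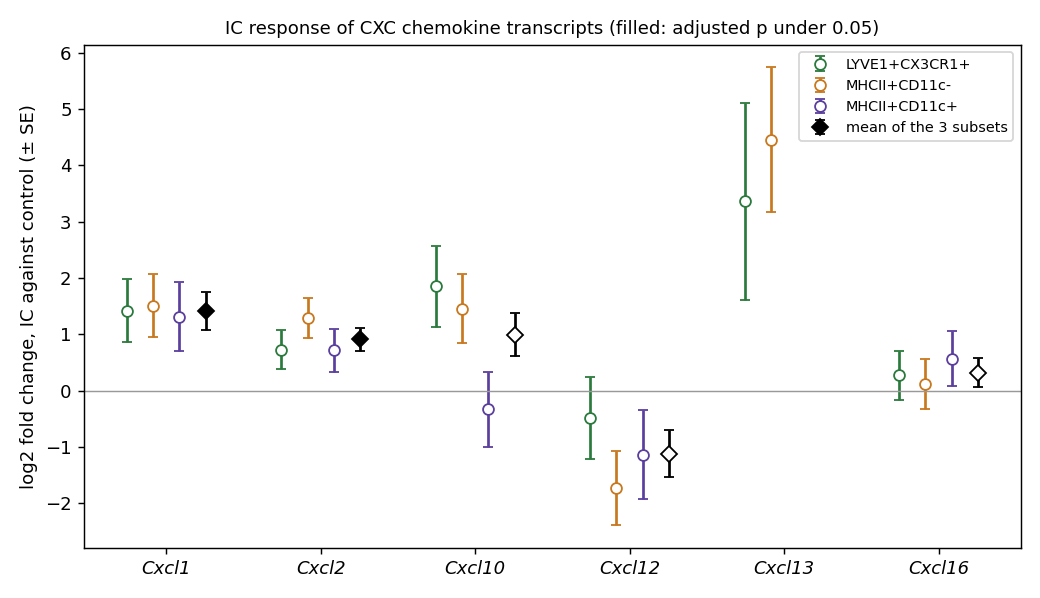
Fitted log2 fold change of IC against control (± SE, edgeR) for each chemokine in each subset (circles) and for the mean of the 3 subsets (diamonds), filled where the adjusted p was under 0.05. Only the means of Cxcl1 (1.41) and Cxcl2 (0.91) are filled, and Cxcl13 is drawn for LYVE1+CX3CR1+ and MHCII+CD11c- macrophages only, since its controls in MHCII+CD11c+ macrophages were at 0.

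Counted over the 6 members and 3 subsets, 0 of 18 tests of the IC response were called with edgeR, against 0.626% of tests over all genes (0.963% for LYVE1+CX3CR1+, 0.701% for MHCII+CD11c- and 0.216% for MHCII+CD11c+ macrophages). Of the 18, 8 had an unadjusted p under 0.05, DESeq2 called 2 and limma voom 1. Over all 15272 genes DESeq2 called 432, 295 and 73 and limma voom 46, 168 and 97, in the same order of subsets. Shares over all genes were not taken for unadjusted p, here or below. For the mean of the 3 subsets, 3 of 6 members were called, all higher, against 3.35% of all genes in either direction and 1.7% higher. The median log2 fold change of the members was 1.07 for LYVE1+CX3CR1+, 1.37 for MHCII+CD11c- and 0.64 for MHCII+CD11c+ macrophages, beside -0.14, -0.03 and 0.015 over all tested genes; the last of the members' medians was the same with Cxcl13 at its bound.

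The second comparison asked whether the IC response differed between subsets. None of 18 differences of responses was called with edgeR, DESeq2 or limma voom, against 0.0196% of tests over all genes with edgeR, and 1 had an unadjusted p under 0.05. That was Cxcl10, whose log2 response was lower in MHCII+CD11c+ than in LYVE1+CX3CR1+ macrophages by -2.19 ± 0.98 (adjusted p = 0.597, edgeR). For Cxcl1 the responses differed by 0.09 ± 0.78 between MHCII+CD11c- and LYVE1+CX3CR1+ macrophages and by -0.11 ± 0.83 between MHCII+CD11c+ and LYVE1+CX3CR1+ macrophages so that the errors were larger than the differences.

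The third comparison asked how the subsets differed in control mice. Cxcl10 and Cxcl12 had subset patterns, while Cxcl1, Cxcl2 and Cxcl16 overlapped between all 3 control groups. With edgeR 3 of 18 tests were called, against 8.48% over all genes, and 8 had an unadjusted p under 0.05.

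Cxcl10 stood at 3 levels without overlap, from LYVE1+CX3CR1+ controls (2.15 ± 1.94 CPM, SD, n = 3) to MHCII+CD11c- (16.5 ± 1.76) and MHCII+CD11c+ controls (62.7 ± 15.6). Between the ends of that order the log2 fold change was 4.72 ± 0.72 (adjusted p = 0.00018, edgeR), called in 26 of 26 alternatives, while 15.2% of all genes were called and 16.9% lay higher without overlap in that contrast. The step from LYVE1+CX3CR1+ to MHCII+CD11c- was 2.80 ± 0.69 (adjusted p = 0.0550, edgeR) and the step to MHCII+CD11c+ was 1.93 ± 0.62 (adjusted p = 0.0671, edgeR). Of all genes, 10.3% lay higher without overlap at the first of these steps and 12.6% at the second. Neither step of Cxcl10 passed, but without LYVE1+CX3CR1+ IC replicate 1, a library outside both contrasts that enters the shared spread, they had adjusted p of 0.00559 and 0.00866 (edgeR). Without LYVE1+CX3CR1+ control replicate 2, the step to MHCII+CD11c+ had 0.0134. Their ranges over 26 alternatives were 0.000228 to 0.220 and 0.00387 to 0.195. The dendritic cell marker sum had the same order as Cxcl10 in controls, at 11.3 to 14.9, 19.97 to 71.5 and 83.0 to 147 CPM in the same order of control groups, and its part in the result was not tested. The genes most like Cxcl10 were Gm11353 (r = 0.884), Runx3 (r = 0.880), a transcription factor, and A530064D06Rik (r = 0.872).

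Cxcl12 was higher in MHCII+CD11c- controls, at 45.2 ± 29.4 CPM (SD, n = 3), than in LYVE1+CX3CR1+ controls at 4.06 ± 2.05 and MHCII+CD11c+ controls at 5.68 ± 1.004. Every MHCII+CD11c- control library lay above those of both other subsets, as for 10.3% of genes against LYVE1+CX3CR1+ and 14.9% against MHCII+CD11c+, but its 3 libraries spread from 14.3 to 72.9 CPM. The log2 fold change was 3.47 ± 0.71 against LYVE1+CX3CR1+ (adjusted p = 0.00979, edgeR; 1.56% of genes called), and MHCII+CD11c+ was lower than MHCII+CD11c- by -2.98 ± 0.69 (adjusted p = 0.00658, edgeR; 8.66% of genes called). They were called in 24 of 26 and 25 of 26 alternatives. Without MHCII+CD11c- control replicate 3 the adjusted p of Cxcl12 was 0.0818 and 0.0711 (edgeR), and without LYVE1+CX3CR1+ control replicate 1 the first was 0.0863.

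Cxcl13 in MHCII+CD11c- controls (55, 14 and 3 counts; 1.003 to 11.7 CPM) lay above both other control groups in CPM (as did 10.3% of genes against LYVE1+CX3CR1+ and 14.9% against MHCII+CD11c+), with at most 6 counts in LYVE1+CX3CR1+ and none in MHCII+CD11c+ libraries. Its lowest library was at the floor of 3 counts. The log2 fold change against LYVE1+CX3CR1+ was 3.85 ± 1.65 (unadjusted p = 0.0423, adjusted p = 0.451, edgeR). Against MHCII+CD11c+ controls, all at 0, no fitted fold is given; the adjusted p of Cxcl13 was 0.135 (edgeR), and it passed with DESeq2 (0.0119) in 1 of 25 alternatives, within a range of 0.0119 to 0.350.

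Fibroblasts, mural cells and endothelial cells are known sources of Cxcl12. The 8 fibroblast markers (Col1a1, Col1a2, Col3a1, Pdgfra, Dcn, Lum, Prg4, Thy1) summed to 64.0, 78.1 and 85.9 CPM in the MHCII+CD11c- controls, in which Cxcl12 was at 48.4, 14.3 and 72.9 CPM. They summed to 34.0 to 69.0 CPM in LYVE1+CX3CR1+ and 8.70 to 219.5 CPM in MHCII+CD11c+ controls, and the library at 219.5 CPM had 4.68 CPM of Cxcl12. The 3 mural cell markers in the table summed to 77.8, 2.30 and 7.69 CPM in the MHCII+CD11c- controls, against 1.08 to 2.65 CPM in LYVE1+CX3CR1+ and 3.78 to 4.46 CPM in MHCII+CD11c+ controls. The 6 endothelial markers summed to 28.1 to 29.3 CPM in MHCII+CD11c- controls, above LYVE1+CX3CR1+ controls (9.61 to 13.8 CPM) without overlap, as Cxcl12 was, and within the range of MHCII+CD11c+ controls (15.9 to 63.7 CPM). In MHCII+CD11c- IC libraries the endothelial sum was 9.09 to 35.8 CPM. The part of these cells in the Cxcl12 difference was not tested. The genes most like Cxcl12 were Plin1 (r = 0.891), which coats lipid droplets of adipocytes and was at 0.884 to 6.19 CPM in these controls, Hdac1 (r = 0.876) and Ints6 (r = 0.851).

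**Figure D4:**
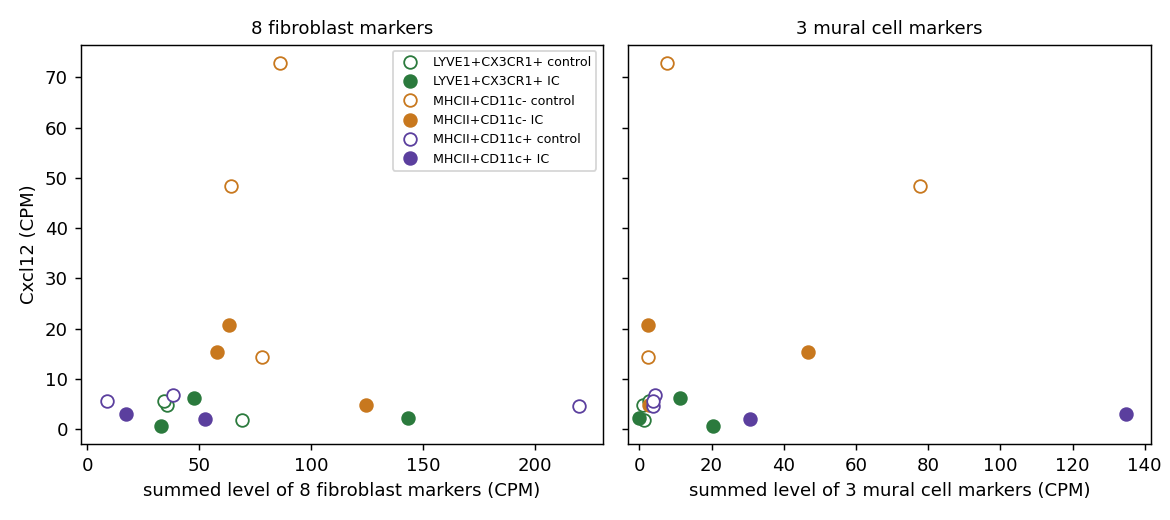
Cxcl12 level in each library (CPM) against the summed CPM of 8 fibroblast markers and of 3 mural cell markers, with open points for control and filled points for IC libraries of the 3 subsets. Cxcl12 is highest in 2 MHCII+CD11c- control libraries (48.4 and 72.9 CPM), and the library with the highest fibroblast sum (219.5 CPM) and the one with the highest mural sum (135 CPM) had 4.68 and 3.09 CPM of Cxcl12. The endothelial sum is not drawn, and it was higher in MHCII+CD11c- (28.1 to 29.3 CPM) than in LYVE1+CX3CR1+ controls (9.61 to 13.8 CPM). The part of these cells was not tested.

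The fourth comparison was between subsets after IC. Cxcl10 was lower in LYVE1+CX3CR1+ macrophages, at 8.66 ± 6.50 CPM (SD, n = 3), than in MHCII+CD11c- at 45.0 ± 18.1 (n = 3) and MHCII+CD11c+ macrophages at 49.6 ± 5.06 (n = 2). The log2 fold change was 2.40 ± 0.66 for MHCII+CD11c- (adjusted p = 0.0408, edgeR; 5.54% of genes called) and 2.54 ± 0.70 for MHCII+CD11c+ macrophages (adjusted p = 0.0248, edgeR; 11.9% of genes called), and both MHCII+ groups lay wholly above the LYVE1+CX3CR1+ group, as did 15.7% and 27.8% of all genes. The dendritic cell marker sum after IC was 6.61 to 10.8, 20.4 to 26.2 and 156 to 201 CPM in the order LYVE1+CX3CR1+, MHCII+CD11c- and MHCII+CD11c+. In MHCII+CD11c+ controls this sum was 83.0 to 147 CPM. Its part in these differences was not tested. The MHCII+CD11c+ difference of Cxcl10 was lost without MHCII+CD11c+ IC replicate 1 (adjusted p = 0.0988, edgeR) or 2 (0.175) and was called in 22 of 26 alternatives. The MHCII+CD11c- difference was called in 9 of 26, and leaving out any 1 of 11 libraries ended it, with adjusted p (edgeR) of 0.0524 to 0.138: all MHCII+CD11c-, MHCII+CD11c+ and LYVE1+CX3CR1+ IC libraries except MHCII+CD11c- IC replicate 3, replicates 1 and 3 of the MHCII+CD11c- controls, and replicate 1 of the other control groups.

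No other member was called between subsets after IC, where 2 of 18 tests passed, 6 had an unadjusted p under 0.05, and 7.17% of tests over all genes passed. Cxcl13 in MHCII+CD11c- macrophages lay above both other subsets without overlap (15.7% of genes against LYVE1+CX3CR1+, 17% against MHCII+CD11c+), with a log2 fold change of 4.94 ± 1.36 against LYVE1+CX3CR1+ (adjusted p = 0.0676, edgeR) and with MHCII+CD11c+ lower by -4.29 ± 1.499 (adjusted p = 0.195, edgeR; 4.03% of genes called). The first of these Cxcl13 differences was called in 5 of 26 alternatives, with DESeq2 (adjusted p = 0.0494), limma voom (0.0309), a fit on only the groups compared (0.00671), the replicate block (0.0452) and equal depth (0.0136), within a range of 0.00671 to 0.151. The second was called in 2 of 26, with limma voom (adjusted p = 0.000188) and equal depth (0.0335), within a range of 0.000188 to 0.898. By group mean Cxcl12 remained highest in MHCII+CD11c- macrophages. Its log2 fold change against LYVE1+CX3CR1+ was 2.23 ± 0.73 (adjusted p = 0.0733, edgeR), and the libraries overlapped. This difference passed with surrogate variables, DESeq2 or the replicate block, and without MHCII+CD11c- IC replicate 1 or LYVE1+CX3CR1+ IC replicate 3, within a range of 0.00929 to 0.395. For Cxcl12, MHCII+CD11c+ was lower than MHCII+CD11c- by -2.39 ± 0.81 (adjusted p = 0.110, edgeR), without overlap, as were 17% of genes. That difference passed in 1 of 26 alternatives, with DESeq2 (adjusted p = 0.0323), within a range of 0.0323 to 0.792. For Cxcl16, MHCII+CD11c+ exceeded MHCII+CD11c- macrophages by 0.95 ± 0.48 (adjusted p = 0.426, edgeR), or 0.0466 without MHCII+CD11c- IC replicate 1, within a range of 0.0466 to 0.907.

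In the order of group means, Cxcl1 and Cxcl2 were highest in MHCII+CD11c+ IC libraries, followed by MHCII+CD11c- IC and LYVE1+CX3CR1+ IC libraries and then the 3 control groups. Only the top pair of neighbours did not overlap, with 2 libraries in the upper group. That difference was not called for Cxcl1 (adjusted p = 0.856, edgeR) or Cxcl2 (adjusted p = 0.918, edgeR). No share over all genes is given for this pair, so its lack of overlap is only described and not read as a result. For Cxcl10 the order was MHCII+CD11c+ control, MHCII+CD11c+ IC, MHCII+CD11c- IC, MHCII+CD11c- control, LYVE1+CX3CR1+ IC and LYVE1+CX3CR1+ control, with gaps on both sides of MHCII+CD11c- control. The lower of these gaps, to LYVE1+CX3CR1+ IC, was not tested and has no share over all genes. Cxcl12 and Cxcl16 had overlapping neighbours throughout, and for Cxcl13 MHCII+CD11c- IC stood alone above the rest.

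Of 9 other CXC ligands listed, 7 were in the table, 5 were tested and none was called after IC. Pf4, a ligand known from platelets, was lower in MHCII+CD11c+ controls (49.98 to 175 CPM) than in LYVE1+CX3CR1+ (414 to 433 CPM; log2 fold change -2.15, adjusted p = 0.00257, edgeR) and MHCII+CD11c- controls (359 to 581 CPM; -2.40, adjusted p = 0.00248, edgeR). After IC, Cxcl3, a CXCR2 ligand, was at 24.2 and 32.2 CPM in MHCII+CD11c+ libraries and at most 0.415 CPM in LYVE1+CX3CR1+ libraries (adjusted p = 0.0159, edgeR). Cxcl9, a CXCR3 ligand like Cxcl10, was at 99.5 and 16.7 CPM in the same MHCII+CD11c+ libraries and at most 0.315 CPM in LYVE1+CX3CR1+ libraries (adjusted p = 0.0490, edgeR).

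Of the 8 receptors and decoys of these ligands, all were in the table, 5 were tested and none was called in any contrast. The CXCL12 receptor Cxcr4 had the highest level among them, with group means of 86.1 to 248 CPM. The CXCL1 and CXCL2 receptor Cxcr2 did not exceed 3.30 CPM in any library and the CXCL13 receptor Cxcr5 did not exceed 7.02 CPM. Dpp4, a peptidase that truncates several chemokines, Cxcl10 and Cxcl12 among them, was at 0.099 ± 0.086 CPM (SD, n = 3) for LYVE1+CX3CR1+, 14.0 ± 8.24 for MHCII+CD11c- and 69.4 ± 30.9 for MHCII+CD11c+ controls, and it was called in all 6 contrasts between subsets (largest adjusted p = 0.0147, edgeR). Adam10 and Adam17, which release CXCL16 from the membrane, were not called in any contrast.

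Of 11 genes of NF-κB induction, all were tested and none was called after IC in any subset or as a mean. Genes not called may still have changed. Tnfaip3 in LYVE1+CX3CR1+ macrophages was at 432 to 513 CPM in controls and 751 to 977 CPM after IC. Rel went the other way there, at 250 to 297 and 185 to 203 CPM. The median log2 fold change of the 11 was -0.024 for LYVE1+CX3CR1+, -0.19 for MHCII+CD11c- and -0.016 for MHCII+CD11c+ macrophages. In controls 5 of these 11 genes (Il1b, Nfkb2, Rel, Relb, Tnfaip3) were higher in MHCII+CD11c+ than in LYVE1+CX3CR1+ macrophages, as were 3 after IC (Il1b, Nfkb1, Rel), where 15.2% and 11.9% of all genes were called. Of the MHCII+ subsets, the CD11c+ one also had higher Rel and Tnfaip3 in controls and higher Rel after IC. Of 13 genes of interferon induction, 12 were tested and Irf7 alone was called after IC, higher in MHCII+CD11c+ macrophages by 2.26 ± 0.40 (adjusted p = 0.0244, edgeR) and as the mean of the 3 subsets by 1.25 ± 0.21 (adjusted p = 0.00274, edgeR). Rsad2, not called, was at 24.2 to 89.1 CPM in MHCII+CD11c- controls and 174 to 316 CPM after IC. Irf1, not called either, went the other way there, at 380 to 598 and 264 to 346 CPM. Between subsets after IC, 5 of the 12 (Irf7, Irf9, Isg15, Rsad2, Stat2) were higher in MHCII+CD11c- and 3 (Irf7, Isg15, Stat2) in MHCII+CD11c+ than in LYVE1+CX3CR1+ macrophages, beside 5.54% and 11.9% of all genes called in either direction. In controls Irf1 and Isg15 were higher in both MHCII+ subsets than in LYVE1+CX3CR1+ macrophages, and of these the CD11c+ subset had lower Irf7 and Irf9 than the other.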

How the data were processed

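Bulk RNA-seq was made from synovial macrophages sorted by flow cytometry after digestion of knee synovium, with a stranded total RNA kit for low input (5 ng of RNA). Per the labels, the authors used Trim Galore, FastQC, HISAT2 against mm10 and featureCounts, and they tested with DESeq2 and sva. Versions, annotation, strand and multimapping settings were not given in the sources used here. The deposited values are raw counts per gene, as one table and one file per library, which held identical values for 17 of 17 libraries. In that table a single column, with a total of 0, matched no sample and was not used. Each gene listed had at least 3 counts in total.

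The members and the gene lists were chosen with earlier results of these data known. The genes named are the members, the 3 tested genes most like each by Pearson's r of log2 CPM (prior count 2), and the called or most abundant genes of the fixed lists. Groups came from the sample titles. All 17 libraries entered a fit of 6 group means (edgeR 4.0.16 in R 4.3.3, filterByExpr with a minimum count of 10, TMM, robust quasi-likelihood F test, 11 residual degrees of freedom), which tested 15272 genes, with Benjamini-Hochberg adjustment over all of them in each contrast and calls at an adjusted p under 0.05. Comparisons of IC with control in different subsets share no libraries, while contrasts between subsets do. The fit treats all libraries as separate samples. If libraries of different subsets came from the same mice, the p-values for the mean of the 3 subsets could be too small. In counts simulated for IC against control in LYVE1+CX3CR1+ macrophages (13542 genes tested), 10 of 80 genes changed 2-fold and 42 of 98 changed 4-fold were called, with 2 calls among unchanged genes. Each gene was simulated at a common mean level in all groups, with independent libraries. The recovery therefore does not describe genes at their own LYVE1+CX3CR1+ levels. Replicates of a group differed by more than counting noise (lowest chi-square per degree of freedom 6.77).

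Alternatives were DESeq2 1.42.0, limma 3.58.1 voom with sample weights, 2 other scalings, no filter, a fit on only the groups compared, the replicate block, 3 surrogate variables (sva 3.50.0), counts thinned to equal depth, and leaving out each of the 17 libraries. Gene positions and exon lengths are from GENCODE M21, in which 22237 symbols (97.3%) matched a single gene, and promoters are from RefSeq (5 of 6 members matched).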

Additional observations from a re-analysis of the deposited data

How the results depend on the processing

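The count of members called after IC was 0 of 18 with edgeR on all libraries, 2 with DESeq2 (Cxcl2 in MHCII+CD11c- and Cxcl10 in LYVE1+CX3CR1+ macrophages), and 1 each with limma voom (Cxcl13, MHCII+CD11c-), a fit on only the groups compared (Cxcl1, LYVE1+CX3CR1+, adjusted p = 0.00916 within a range of 0.00916 to 0.543) and the replicate block (Cxcl2, MHCII+CD11c-); it was 0 to 1 when 1 library was left out. Against 3 calls between subsets in controls, DESeq2 made 6, limma voom 5 and a fit on only the groups compared 5, and leaving out 1 library left 1 to 5. Over all genes, MHCII+CD11c- against LYVE1+CX3CR1+ controls had 238 calls with edgeR, 497 with DESeq2, 977 with limma voom and 494 with that fit. For MHCII+CD11c+ the calls were 2326, 2926, 3810 and 2703 against LYVE1+CX3CR1+, and 1323, 1953, 1733 and 956 against MHCII+CD11c-. Against 2 calls between subsets after IC, DESeq2 made 5, equal depth 4, other size factors (RLE), library totals and a fit on only the groups compared 1 each and no filter on low counts 0, with 0 to 3 when 1 library was left out. Over all genes in the same 3 pairs of subsets after IC, edgeR called 846, 1824 and 616, DESeq2 1470, 2310 and 1017, and equal depth 794, 1704 and 647. Differences of responses stayed at 0 calls under the 9 alternatives and all 17 left-out libraries. The 3 calls on the mean IC response became 0 with no filter, and 0 to 3 without 1 library; the fit on only the groups compared gives no such mean. Replicate numbers were not taken as pairs: between libraries of the same treatment, deviations from the group means correlated positively in 16 of 16 pairs with the same number (r from 0.0013 to 0.29, median 0.041) but above 0.1 in 2, against 9 of 32 positive pairs with another number, and 13 of 17 libraries correlated best with their own number, a hint from the data and not the design. Deviations within a group sum to 0, so a positive r with the same number pushes r with other numbers down. These pairs are therefore not separate observations. The replicate block moved the count of calls between subsets from 3 to 4 in controls and from 2 to 3 after IC. Why these counts moved was not tested.

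Among the differences that had not passed, log2 values changed sign when 1 library was left out for Cxcl16 after IC in MHCII+CD11c- macrophages (-0.50 to 0.54), Cxcl12 after IC in LYVE1+CX3CR1+ macrophages (-1.48 to 0.067) and the Cxcl1 response compared with LYVE1+CX3CR1+ for MHCII+CD11c- (-0.30 to 0.83) and MHCII+CD11c+ macrophages (-0.49 to 0.82). The Cxcl1 response difference for MHCII+CD11c- also changed sign with DESeq2 (-0.023), RLE (-0.030), library totals (-0.0051) and surrogate variables (-0.39), and that for MHCII+CD11c+ with limma voom (0.27) and the replicate block (0.040). Over all alternatives, among the IC fold changes, their means, the called subset differences and most of the uncalled ones given in the text, 924 values kept their direction and side of the threshold, 56 lost a call, 33 gained one and 17 changed sign. Depth limits Cxcl13, Cxcl12 and Cxcl10 in LYVE1+CX3CR1+ macrophages, with at most 21, 40 and 38 counts in a library.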
